A study of Rattus norvegicus with 5 samples.

Results

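Adenosine is made outside neurons from released ATP and signals through receptors on the cell surface, and the 6 genes described here cover that route: the receptor genes Adora2a and Adora1, the ectonucleotidase genes Entpd1 and Nt5e, the transporter gene Slc29a1 and the kinase gene Adk. They were taken as a named list by gene symbol in the authors' deposited comparison, and all 6 of 6 were found, among 32285 genes in the count tables. Each had 1 Ensembl identifier, and all 6 passed the filter on low counts that left 13811 genes for testing.

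The study profiled neurons of the rat striatum, labelled by a fluorescent tracer taken up at their axon endings and then cut out one by one by laser capture. Striatomesencephalic neurons, the direct pathway to the midbrain, gave 2 libraries. Striatopallidal neurons, the indirect pathway to the pallidum, gave 3 libraries. The sources used here give neither strain, age, sex nor treatment of the rats, nor the cells or animals behind a library, and libraries of a group may share an animal. P-values then measure the spread between these 5 libraries only and would be too small if animals are shared.

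As background, the ecto-enzyme that Entpd1 encodes (CD39 in immunology) cuts ATP and ADP to AMP, and the enzyme of Nt5e (CD73) cuts AMP to adenosine. The receptor of Adora2a couples to the stimulatory G proteins that raise cyclic AMP and is concentrated in the striatum on indirect pathway neurons, where it opposes the dopamine receptor of Drd2. The receptor of Adora1 couples to inhibitory G proteins and is widespread in the brain. Slc29a1 encodes an equilibrative nucleoside transporter, and Adk the kinase that turns adenosine back into AMP inside cells, which in adult brain is known mainly from astrocytes.

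Library totals ran from 20845178 to 24805062 counts, and 3 counts, taken as the detection floor, corresponded to 0.121 to 0.144 CPM, a gene's count scaled to a library total of 1000000. Floors cover counting error only, since the labels mention no molecular identifiers. Markers went with the labels. Summed over 8 of 8 direct pathway markers, levels were 4727 and 5148 CPM across striatomesencephalic libraries, against 1689 to 2553 CPM across striatopallidal libraries. Summed over 3 of 5 indirect pathway markers, with Adora2a left out, they were 549.8 and 559.7 CPM across striatomesencephalic libraries, against 1816 to 3215 CPM across striatopallidal libraries. None of these 8 direct and 3 indirect markers was absent from any library. The other indirect markers, Gpr52 and Sp9, had no symbol match in the authors' deposited comparison and were not looked up in the counts. Striatopallidal replicate 2 stood apart from the rest: its Spearman correlations with the other 4 libraries across genes, which are not replicates, were 0.785 to 0.820, against 0.845 to 0.907 for all other pairs. Fitted values without it are given with each of the 6 genes.

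Adora2a and Entpd1 were lower in striatomesencephalic neurons by more than the spread between libraries. Adora2a was 3.35-fold and Entpd1 9.32-fold lower. Adora1, Nt5e, Adk and Slc29a1 overlapped between the groups. Fold changes are on the log2 scale, striatomesencephalic over striatopallidal, as fitted by edgeR's quasi-likelihood test. No gene passed that test after Benjamini-Hochberg adjustment over all genes, at a threshold of 0.05: it called 0 of 13811 genes (0%), while 839 (6.07%) had an unadjusted p below 0.05. Of the 6 genes, 2 had an unadjusted p below 0.05 and both were lower in striatomesencephalic neurons, against 3.14% of all genes tested in that direction. The same 2 of 6 were lower in both striatomesencephalic libraries than in any striatopallidal library, against 9.91% of all genes tested in that direction and 21.1% in either. The median log2 fold change of the 6 genes was -0.52, and that of all genes tested was -0.06. Libraries are bulk samples of captured cells, so fewer cells expressing a gene and less of its RNA per cell cannot be told apart.

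**Figure D1:**
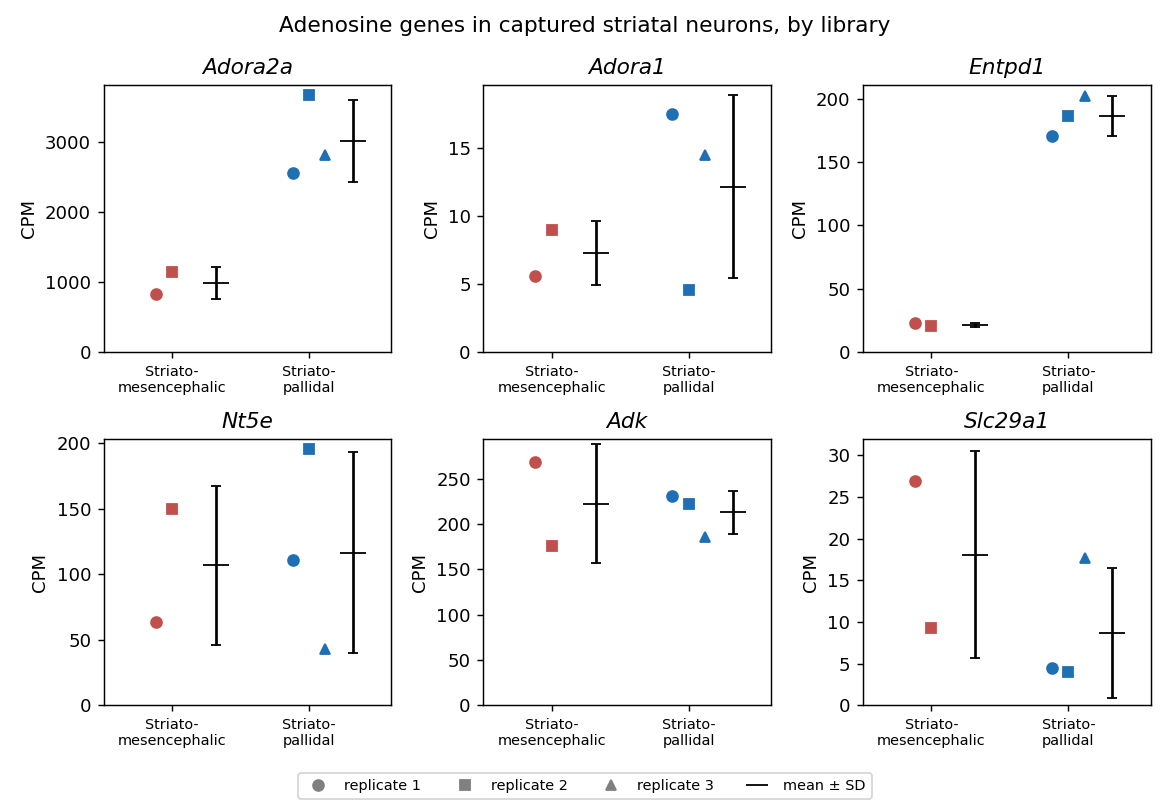
Level of each of the 6 genes in CPM (y axis, from 0) in the 2 striatomesencephalic (left) and 3 striatopallidal (right) libraries, 1 point a library, with the mean and SD beside them. The groups are separate for Adora2a and Entpd1 and overlap for the other genes.

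Adora2a (ENSRNOG00000001302) was well covered in both neuron types, with 17178 counts or more in every library. It stood at 824 and 1150.45 CPM in striatomesencephalic replicates 1 and 2, against 2558, 3676 and 2814 CPM in striatopallidal replicates 1, 2 and 3. Every striatopallidal library was above both striatomesencephalic libraries, and the lowest striatopallidal value was 2.22 times the highest striatomesencephalic one. Means were 987 ± 231 CPM (SD, n = 2) across striatomesencephalic and 3016 ± 586 CPM (SD, n = 3) across striatopallidal libraries. The log2 fold change was -1.74 ± 0.41 (SE), with a 95% confidence interval of -2.71 to -0.78 and an unadjusted p of 0.00361 in edgeR's quasi-likelihood test, the 44th smallest of 13811. Its adjusted p was 0.779, and DESeq2 (adjusted p = 0.131) and the exact test of edgeR (0.289) did not call it either. The value was -1.36 without striatopallidal replicate 2, the library with the highest level. In the authors' deposited table, whose sign runs the other way (striatopallidal minus striatomesencephalic), Adora2a had 1.64 and the 2nd smallest p of 12054 genes, at 0.000381, with an adjusted p of 0.927.

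The level that remained in striatomesencephalic libraries was 32.7% of the striatopallidal mean for Adora2a. It was 25.1% for Drd2, the dopamine receptor gene of indirect pathway neurons, and 15.8% for Penk, the enkephalin precursor gene. Ratios of counts within a library need no scaling between libraries. The ratio of Adora2a to Drd1, the dopamine receptor gene of direct pathway neurons, was 0.957 and 1.06 across striatomesencephalic libraries, against 4.396, 11.8 and 6.79 in striatopallidal libraries. Mean log2 ratios were 0.01 ± 0.11 in striatomesencephalic (SD, n = 2) and 2.82 ± 0.71 in striatopallidal libraries (SD, n = 3). Adora2a was lower and Drd1 higher in both striatomesencephalic libraries than in any striatopallidal library. Their ratio therefore had to separate the groups and adds no evidence beyond those levels. Counts of Adora2a over those of Drd2 were 5.72 and 10.5 across striatomesencephalic libraries, against 4.22, 9.41 and 5.37 in striatopallidal libraries, and here the groups overlapped. Adora2a over Penk was 3.16 and 3.19 across striatomesencephalic libraries, against 1.14, 2.92 and 1.18 in striatopallidal libraries. Both striatomesencephalic values lay above the other 3, with striatopallidal replicate 2 close below them. With 2 libraries against 3, an exact permutation test of such a ratio cannot give a p below 0.1, so the ratios were not tested, and genes differ in length, so a ratio is read across libraries and not as an order of levels.

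**Figure D2:**
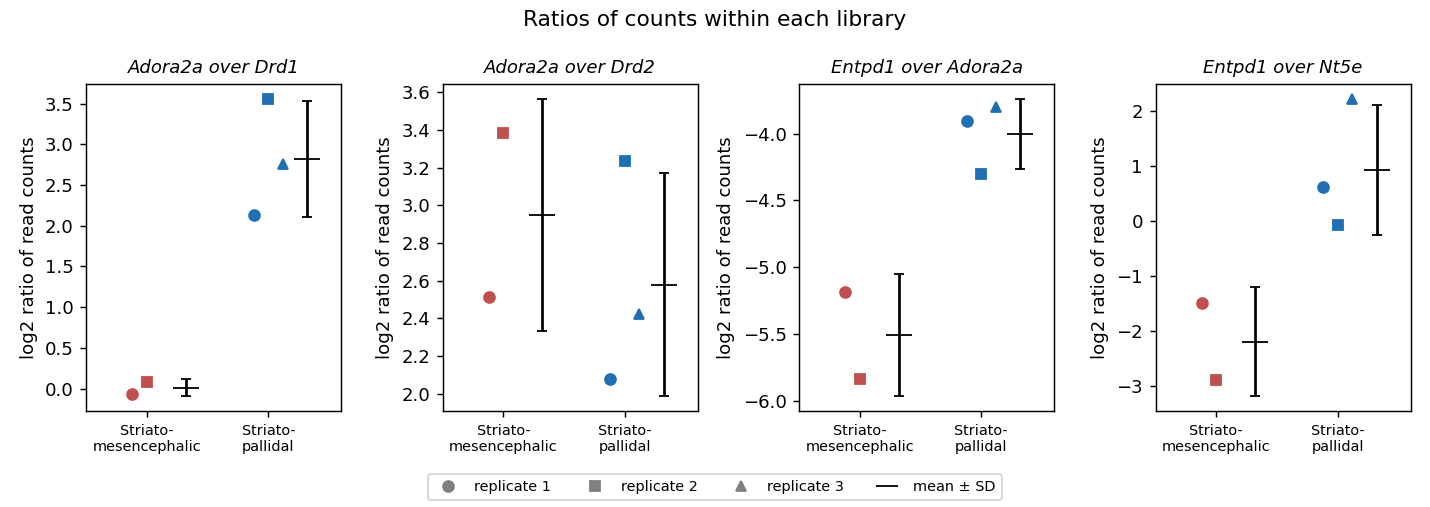
Log2 ratio of the read counts of 2 genes within each library (y axis), for striatomesencephalic (left) and striatopallidal (right) libraries, with mean and SD beside the points. Adora2a over Drd1, Entpd1 over Adora2a and Entpd1 over Nt5e separate the groups, while Adora2a over Drd2 does not.

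Adora1 (ENSRNOG00000003442) had few counts in every library. It stood at 5.61 and 8.93 CPM in striatomesencephalic libraries (117 and 202 counts), against 17.4, 4.56 and 14.5 CPM across striatopallidal libraries (416, 113 and 324 counts). Striatopallidal replicate 2 was the lowest of all 5 libraries and replicates 1 and 3 the highest, so the groups overlapped. Means were 7.27 ± 2.35 CPM (SD, n = 2) across striatomesencephalic and 12.2 ± 6.75 CPM (SD, n = 3) across striatopallidal libraries, for a log2 fold change of -0.71 ± 0.88 (SE). The difference did not pass (adjusted p = 0.910 in edgeR's quasi-likelihood test), and its 95% interval of -2.79 to 1.36 covers the value of Adora2a as well as values above 0. Without striatopallidal replicate 2 the value was -1.04. The ratio of Adora2a to Adora1 was 147 and 129 across striatomesencephalic libraries, against 147, 807 and 195 in striatopallidal libraries. The groups overlapped, and striatopallidal replicate 2 alone was far above the rest. Mybph overlaps 5.44% of the span of Adora1 in RefSeq's GRCr8 annotation, so reads there are uncertain, and the sources do not say whether counting used strand. Mybph had more counts than Adora1 in every library. Its counts were 1243 and 1307 for striatomesencephalic replicates 1 and 2. For striatopallidal replicates 1, 2 and 3 they were 1112, 319 and 1546. Whether reads of Mybph and Adora1 were mixed or dropped was not tested.

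Entpd1 (ENSRNOG00000014574) differed most of the 6 genes and varied least within the groups. It stood at 22.6 and 20.2 CPM in striatomesencephalic libraries (472 and 457 counts), against 171, 186 and 202 CPM across striatopallidal libraries (4069, 4621 and 4526 counts). The highest library of a group was 1.12 times the lowest in striatomesencephalic and 1.18 times in striatopallidal neurons. Such a ratio tends to rise with the number of libraries, so the groups are not compared in it. For genes with a mean of at least 20 CPM its median was 1.56 in striatomesencephalic and 2.29 in striatopallidal neurons. The lowest striatopallidal level was 7.54 times the highest striatomesencephalic level, a gap that 5 of 6807 such genes reached, Entpd1 included.

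Means of Entpd1 were 21.4 ± 1.72 CPM (SD, n = 2) across striatomesencephalic and 186 ± 15.6 CPM (SD, n = 3) across striatopallidal libraries, so that 11.5% of the striatopallidal level remained. The log2 fold change was -3.22 ± 0.49 (SE), with a 95% interval of -4.38 to -2.06. The unadjusted p of 0.000317 in edgeR's quasi-likelihood test was the 3rd smallest of 13811, and the adjusted p was 0.779. DESeq2 called Entpd1, as 1 of 6 members of the list, with an adjusted p of 5.72e-06, where it called 1.75% of genes in all and 1.08% in that direction, and so did the exact test of edgeR with an adjusted p of 0.00325, where it called 0.326% in all and 0.101% in that direction. The value lay between -3.38 and -3.04 whichever library was left out, and it was -3.04 without striatopallidal replicate 2. In the authors' deposited table, with the sign of striatopallidal minus striatomesencephalic values, it had 3.12 and the 5th smallest p, 0.000657, with an adjusted p of 0.927. That table called 0 genes after adjustment and held 4.53% at an unadjusted p below 0.05. A long noncoding RNA gene on the same strand overlaps Entpd1 in RefSeq's GRCr8 annotation, and a pseudogene also overlaps it, so some reads could be shared.

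The difference was larger for Entpd1 than for Adora2a within the same libraries. Entpd1 over Adora2a, as log2 ratios of counts, was -5.19 and -5.83 across striatomesencephalic libraries, against -3.91, -4.30 and -3.80 in striatopallidal libraries, a difference of -1.51. Entpd1 over Drd2 was -2.67 and -2.44 across striatomesencephalic libraries, against -1.83, -1.07 and -1.38 in striatopallidal libraries, a difference of -1.13. Neither ratio overlapped between the groups.

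Microglia and blood vessels are also known to carry Entpd1, so their markers are given beside it. Summed over 7 of 13 microglial markers, levels were 129 and 104 CPM across striatomesencephalic libraries, against 50.8 to 178 CPM across striatopallidal libraries, and the groups overlapped. Within that list Tmem119 stood at 1.10 and 0.486 CPM across striatomesencephalic libraries, against 2.22, 12.6 and 10.8 CPM across striatopallidal libraries, and did not overlap. Ctss lay the other way in its means, 63.2 CPM for striatomesencephalic and 20.6 CPM for striatopallidal libraries. It made up 91.7 of the 129 CPM of the sum in striatomesencephalic replicate 1. Of the 7, 2 were higher and 5 lower in striatomesencephalic neurons. C1qb (means of 3.99 CPM against 18.8 CPM) and C1qc (2.66 CPM against 7.65 CPM) were among the lower ones, but overlapped. The other 6 microglial markers, among them Cx3cr1 and P2ry12, were not analysed here. Summed over 10 of 12 endothelial markers, levels were 174 and 296 CPM across striatomesencephalic libraries, against 191 to 229 CPM across striatopallidal libraries, which overlapped too. Of the 10, 5 were higher and 5 lower in striatomesencephalic neurons, with Flt1 and Tek lower without overlap, Abcb1a at means of 88.3 CPM in striatomesencephalic and 43.5 CPM in striatopallidal libraries, and Vwf at 0 in striatopallidal replicate 2. Of 12 astrocyte markers, 6 were higher and 6 lower in striatomesencephalic neurons, and their sums overlapped, at 1939 and 1491 CPM across striatomesencephalic libraries, against 1459.9 to 2064 CPM across striatopallidal libraries. Without overlap, Slc1a2 and Aldh1l1 were higher, and Aqp4 and Gfap lower, with Gfap at 11.5 and 3.85 CPM across striatomesencephalic libraries, against 243, 175 and 87.7 CPM across striatopallidal libraries. The markers named in these lists, other than for their sums, were chosen after their values were seen. The part that these cells have in the Entpd1 difference was not tested.

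Nt5e (ENSRNOG00000011071), whose enzyme takes the AMP that the Entpd1 enzyme makes, varied more within the groups than between them. It stood at 63.8 and 149.9 CPM across striatomesencephalic libraries, against 111, 196 and 43.4 CPM across striatopallidal libraries. Both the highest and the lowest library were striatopallidal, and they differed 4.52-fold. Means were 107 ± 60.9 CPM (SD, n = 2) across striatomesencephalic and 117 ± 76.4 CPM (SD, n = 3) across striatopallidal libraries, for a log2 fold change of -0.33 ± 0.81 (SE). The adjusted p was 0.965 in edgeR's quasi-likelihood test, and the 95% interval of the ratio of the groups ran from 0.213 to 2.996. The sign depended on single libraries: the log2 fold change was 0.58 without striatopallidal replicate 2 and 0.18 without striatomesencephalic replicate 1. The ratio of Entpd1 to Nt5e read counts separated the groups, as the level of Entpd1 did alone, so it adds no evidence on Nt5e. Entpd1 over Nt5e was 0.355 and 0.135 across striatomesencephalic libraries, against 1.54, 0.951 and 4.66 in striatopallidal libraries, a difference of -3.12 in mean log2 ratio. Nt5e lies wholly inside the span of Snx14 on the opposite strand in RefSeq's GRCr8 annotation, and without known strand the reads of the pair may be mixed or dropped. Snx14 stood at 132 and 107 CPM across striatomesencephalic libraries, against 87.7, 87.6 and 72.7 CPM across striatopallidal libraries, and did not follow the pattern of Nt5e.

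The sequences before the starts of Entpd1 and Nt5e are shown because these enzymes act one after the other, and the groups overlapped for Nt5e but not for Entpd1. Each runs over the 250 bases before the gene's annotated start (RefSeq, build GRCr8, a different build from the Rnor_6.0 of the counts), 5′ to 3′ on the plus strand. Entpd1 lies at chr1:249422614-249422863 and Nt5e at chr8:98150675-98150924. Capitals mark every match, on either strand, to the CCAAT box (CCAAT) or the GC box (GGGCGG).
Entpd1: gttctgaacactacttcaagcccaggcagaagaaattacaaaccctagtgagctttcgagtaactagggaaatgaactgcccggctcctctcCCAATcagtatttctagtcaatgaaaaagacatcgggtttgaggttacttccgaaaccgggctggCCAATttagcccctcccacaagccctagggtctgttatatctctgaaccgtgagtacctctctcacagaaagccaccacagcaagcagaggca
Nt5e: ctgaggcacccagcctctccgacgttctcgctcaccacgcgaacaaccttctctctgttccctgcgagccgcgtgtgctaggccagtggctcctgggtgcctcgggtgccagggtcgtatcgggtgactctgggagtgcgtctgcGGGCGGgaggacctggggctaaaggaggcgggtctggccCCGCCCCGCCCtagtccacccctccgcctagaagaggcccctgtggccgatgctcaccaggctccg
The Entpd1 window held 2 CCAAT boxes, which began 158 and 93 bases before the start, no GC box, 6 CG pairs and 48.8% G and C. The Nt5e window held no CCAAT box, 3 GC boxes that began 105, 66 and 61 bases before the start, of which the last 2 overlap by 1 base, 20 CG pairs and 68.8% G and C. Among 33469 rat windows of that length, 34% held a CCAAT box and 30.5% a GC box, and the median was 5 CG pairs and 51.2% G and C. The TATA box (TATAAA), the cyclic AMP response element (TGACGTCA) and the E box (CACGTG) were found in neither, where 12.9%, 1.59% and 5.59% of all windows held them, in that order. These are matches of letters only. Of the 6 genes, 5 had a window in the RefSeq table, and Adora2a had none.

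Slc29a1 (ENSRNOG00000019752), whose transporter lets adenosine across the membrane in both directions, was low and scattered. It stood at 26.9 and 9.29 CPM in striatomesencephalic libraries (560 and 210 counts), against 4.45, 3.99 and 17.6 CPM across striatopallidal libraries (106, 99 and 395 counts). Striatopallidal replicate 3 lay between the striatomesencephalic libraries, so the groups overlapped. Means were 18.1 ± 12.4 CPM (SD, n = 2) across striatomesencephalic and 8.69 ± 7.74 CPM (SD, n = 3) across striatopallidal libraries, for a log2 fold change of 1.03 ± 0.97 (SE). It was the only one of the 6 genes with a positive value, and it did not pass (adjusted p = 0.869 in edgeR's quasi-likelihood test, 95% interval -1.27 to 3.32). Without striatomesencephalic replicate 1, the library with the highest level, the value was 0.10, and it was 0.76 without striatopallidal replicate 2.

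Adk (ENSRNOG00000012325) was close to even. It stood at 269 and 176 CPM across striatomesencephalic libraries, against 231, 222 and 186 CPM across striatopallidal libraries. The 3 striatopallidal libraries lay inside the range of the striatomesencephalic ones. Means were 223 ± 65.3 CPM (SD, n = 2) across striatomesencephalic and 213 ± 23.8 CPM (SD, n = 3) across striatopallidal libraries, for a log2 fold change of -0.04 ± 0.41 (SE). The adjusted p was 0.994 in edgeR's quasi-likelihood test. The 95% interval of the ratio ran from 0.493 to 1.91. Without striatopallidal replicate 2 the log2 fold change was 0.18, and without striatomesencephalic replicate 2 it was 0.22. All 12 astrocyte markers were present in every library, with sums that overlapped between the groups as given for Entpd1, and the part of astrocyte RNA in the Adk level was not tested. A pseudogene of Adk, Adk-ps1, and overlapping Ap3m1 could share reads with it.

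**Figure D3:**
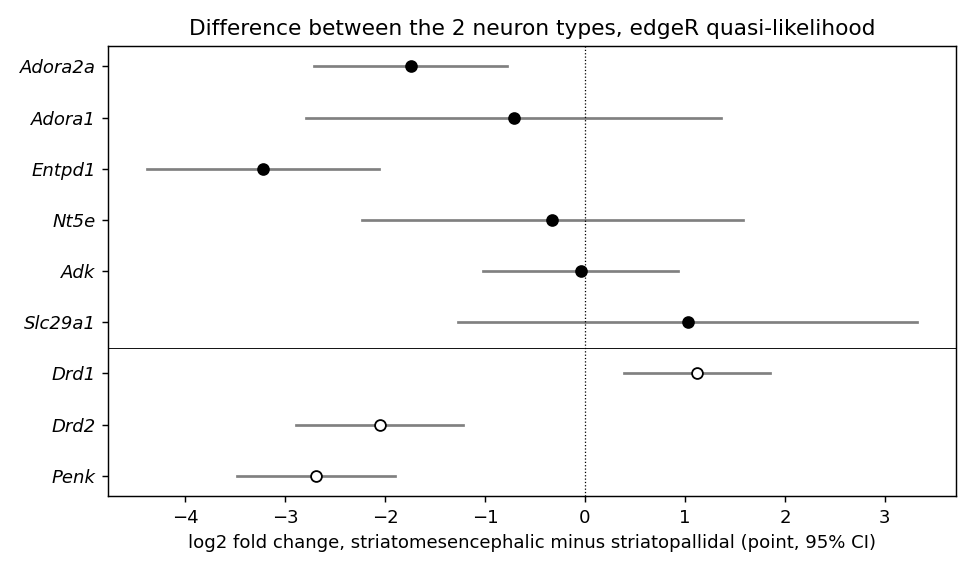
Log2 fold change of striatomesencephalic minus striatopallidal libraries (x axis) with its 95% confidence interval, for the 6 genes (filled) and, under the line, Drd1, Drd2 and Penk (open). The intervals of Adora2a and Entpd1 lie below 0 and those of Adora1, Nt5e, Adk and Slc29a1 include 0.

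**Figure D4:**
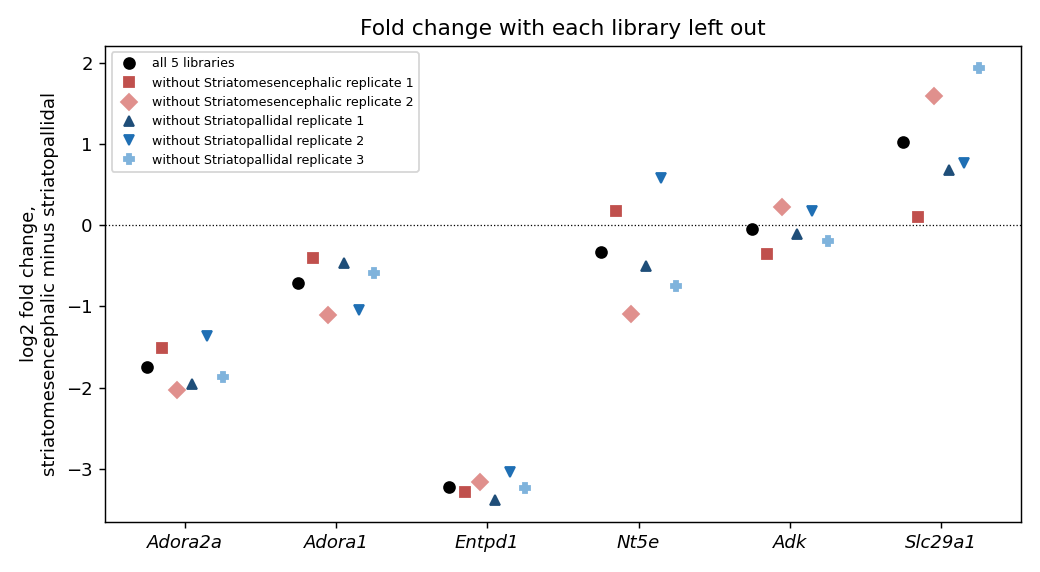
Log2 fold change of striatomesencephalic minus striatopallidal libraries (y axis) of the 6 genes with all 5 libraries (black) and with each library left out. Entpd1 stays between -3.38 and -3.04 and Adora2a between -2.02 and -1.36, while Nt5e and Adk lie on both sides of 0.

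Genes with the pattern most like each of the 6 were sought among 6793 other genes with a symbol and a mean of at least 20 CPM. Likeness was the root mean square difference between log2 levels (TMM-scaled CPM plus 1) centred on their own mean, over 5 libraries. With 5 points a gene, these matches are a description. Nearest to Adora2a were Ttc37 at 0.122, Kitlg at 0.154 and Esrra at 0.163. For Entpd1 the nearest were Stk32a at 0.297, Ccdc88c at 0.351 and Myo1d at 0.387. The measure is not scaled to the size of a gene's changes, so its values are not compared between the 6 genes. Stk32a had 29.8 and 37.0 CPM across striatomesencephalic libraries, against 178, 335 and 273 CPM across striatopallidal libraries. The nearest genes were Trim28 (0.111), Acvr1 (0.111) and Slu7 (0.114) for Adora1, and Maml2 (0.127), Usp22 (0.204) and Brwd3 (0.220) for Nt5e. Srrm2 (0.0615) and Pabpn1 (0.0649) were among the nearest for Adk, and the nearest for Slc29a1 were Aldh3a2 (0.104), Gtf3c6 (0.210) and Usp36 (0.238).

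The rest of the purine pathway showed no common direction. The lists of other receptors, ectonucleotidases, nucleoside transporters, adenosine metabolism, ATP release and nucleotide receptors held 68 genes. Of these, 42 had a symbol match in the authors' deposited comparison, without which a gene was not looked up in the counts. All 42 were tested. None passed in edgeR's quasi-likelihood test adjusted over all genes, and DESeq2 called 0 of them, with no adjusted p for Ada or P2ry2. At an unadjusted p below 0.05 there were 4 higher and 2 lower in striatomesencephalic neurons, against 2.93% and 3.14% of all genes tested. Of the 42, 22 were higher and 20 lower, and their median log2 fold change was 0.06.

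Among the 8 other ectonucleotidases, 3 were higher and 5 lower in striatomesencephalic neurons, with a median of -0.05. Enpp1, a pyrophosphatase that cuts ATP to AMP, ran opposite to Entpd1. It stood at 52.4 and 35.3 CPM across striatomesencephalic libraries, against 4.24, 0.0403 and 3.93 CPM across striatopallidal libraries, which did not overlap. Its log2 fold change was 4.08 ± 1.38 (SE), with an unadjusted p of 0.0208 and an adjusted p of 0.779, and 3.51 without striatopallidal replicate 2, where it had 1 count. Entpd3, a relative of Entpd1 found on neurons, had the same direction as Entpd1, at 30.9 and 46.3 CPM across striatomesencephalic libraries, against 72.1, 114 and 66.1 CPM across striatopallidal libraries, or -1.28 ± 0.63 (SE) in log2 fold change at an unadjusted p of 0.0809, and -0.75 without striatopallidal replicate 2. Entpd4, an enzyme of internal membranes and the most abundant of the list in mean CPM, had -0.04. Alpl, tissue-nonspecific alkaline phosphatase, had 3.13 on 776 counts in striatomesencephalic replicate 1 and 18 to 121 in the other 4 libraries, and its value was -1.24 without that library.

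The other adenosine receptor gene analysed, Adora2b, was rare, at 2.69 and 2.52 CPM across striatomesencephalic libraries, against 3.36, 0.0403 and 2.23 CPM across striatopallidal libraries. Of 3 other nucleoside transporter genes, all 3 had positive values and were rare. Slc28a2, a sodium-driven nucleoside carrier, had 132 and 591 counts across striatomesencephalic libraries, against 92, 23 and 74 counts across striatopallidal libraries. Its log2 fold change was 2.62 ± 1.02 (SE) with an unadjusted p of 0.0372, and it was 1.24 without striatomesencephalic replicate 2 and 3.32 without replicate 1. Slc29a3 had 1.65 and Slc29a4 2.28, and each turned negative without 1 striatomesencephalic library.

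Of 20 genes of adenosine metabolism, 12 were higher and 8 lower in striatomesencephalic neurons, with a median of 0.06. Ampd2, an AMP deaminase, stood at 47.8 and 29.5 CPM across striatomesencephalic libraries, against 14.5, 11.1 and 11.2 CPM across striatopallidal libraries, or 1.58 ± 0.65 (SE) in log2 fold change at an unadjusted p of 0.0448. Adal, an adenosine deaminase-like gene, had 2.02 (unadjusted p of 0.0302), with 0.88 without striatomesencephalic replicate 2 and 2.65 without replicate 1. Pnp, the purine nucleoside phosphorylase that acts after deamination, had -2.39 (unadjusted p of 0.0400), at 16.1 and 4.25 CPM across striatomesencephalic libraries, against 21.7, 45.6 and 81.2 CPM across striatopallidal libraries. It was -3.62 without striatomesencephalic replicate 1 and -1.73 without striatomesencephalic replicate 2. Ahcyl1, a relative of the enzyme that frees adenosine from S-adenosylhomocysteine and the most abundant of the list, had -0.31. The adenosine deaminase gene Ada swung from 3 to 3128 counts between libraries, with 1515 and 14 counts across striatomesencephalic libraries, against 147, 3 and 3128 counts across striatopallidal libraries. It falls outside the rule for named genes and was chosen after its values were seen.

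Of 5 genes through which ATP leaves cells, 1 was higher and 4 lower in striatomesencephalic neurons. Panx1, a pannexin channel, had -2.17 ± 1.08 (SE, unadjusted p of 0.0848), and ran from -3.92 without striatomesencephalic replicate 2 to -1.004 without striatopallidal replicate 2. Lrrc8a, a subunit of volume-regulated channels, had -1.38, and -0.73 without striatopallidal replicate 2. Panx2 had -0.60, and -0.07 without striatopallidal replicate 2, and the connexin gene Gja1 had 0.10. Of 5 nucleotide receptor genes, 2 were higher and 3 lower. P2ry2 had 3 and 10 counts across striatomesencephalic libraries, against 36, 6110 and 46 counts across striatopallidal libraries. Its fitted value of -8.52 rested on striatopallidal replicate 2 and was -2.49 without it. P2ry1 had -1.20, and ran from -2.28 without striatomesencephalic replicate 1 to -0.59 without striatomesencephalic replicate 2. P2rx4 had 0.90, and ran from 0.24 without striatomesencephalic replicate 2 to 1.601 without striatopallidal replicate 3.

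Of 16 tested genes in the list of receptor coupling, 7 were higher and 9 lower in striatomesencephalic neurons, with a median of -0.06. That list also holds Grm5 and Cnr1, which encode other receptors. Gnal, which encodes the stimulatory G protein subunit of striatal neurons, had 0.02 ± 0.32 (SE) and Adcy5, the main striatal adenylyl cyclase, 0.38 ± 0.43 (SE), both chosen after their values were seen. Pde10a, the phosphodiesterase of projection neurons and the most abundant of the list, had -0.54, and ran from -0.84 to -0.29 with 1 library left out. Gnai2, an inhibitory subunit, had 0.99, and ran from 0.58 to 1.40 in the same way. Kcnj3, a potassium channel subunit opened by inhibitory G proteins, had -2.14 ± 0.75 (SE, unadjusted p of 0.0250), and -1.39 without striatopallidal replicate 2. Cnr1, the cannabinoid receptor, had the smallest p of the list, at 28.8 and 119.7 CPM across striatomesencephalic libraries, against 863, 247 and 616 CPM across striatopallidal libraries. Its log2 fold change was -2.93 ± 0.74 (SE), with an unadjusted p of 0.00548 and an adjusted p of 0.779 in edgeR's quasi-likelihood test. DESeq2 called it (adjusted p = 0.0215). The value was -4.32 without striatomesencephalic replicate 2 and -2.23 without striatomesencephalic replicate 1.

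**Figure D5:**
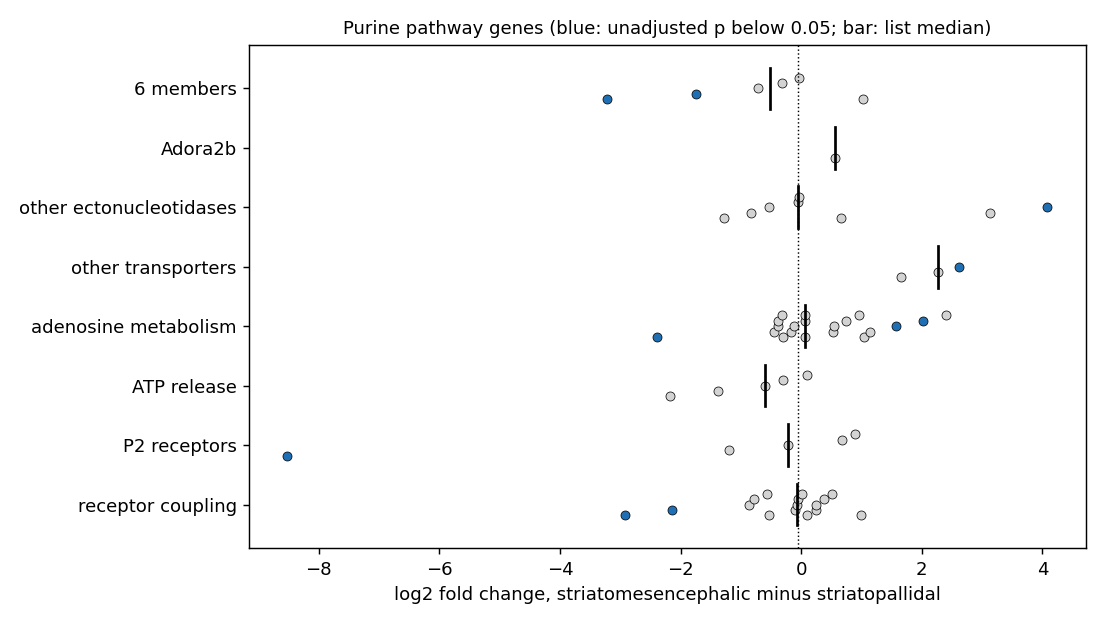
Log2 fold change of striatomesencephalic minus striatopallidal libraries (x axis), 1 point a gene, for the 6 genes and 7 lists of the purine pathway and receptor coupling (rows), with each list's median as a bar and the median of all genes, -0.06, as a dotted line. Blue points have an unadjusted p below 0.05, and none passed after adjustment over all genes.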

How the data were processed

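RNA of the captured cells was taken up in TRIzol, its polyadenylated part was copied with Qiagen's REPLI-g Single Cell Kit, and GeneRead reagents gave the sequencing libraries, per the labels' protocols. Such preparation from small input can widen the spread between libraries. TopHat2, HTSeq, edgeR, limma and build Rnor_6.0 are named per the submitters' processing notes, without versions or roles. The authors deposited raw read counts per Ensembl gene for each library, and all levels and tests here start from these counts. The authors' deposited comparison, with a log2 fold change and both raw and adjusted p-values for 12054 genes, supplied the gene symbols and the values credited to it, and its sign was read from Penk, Drd2 and Drd1 against the counts. Their tables of normalized values were not used.

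Counts were filtered by filterByExpr, scaled by TMM and tested with edgeR 4.0.16 in R 4.3.3 (glmQLFit and glmQLFTest, defaults) on all 5 libraries, with Benjamini-Hochberg adjustment over 13811 genes at 0.05. The common biological coefficient of variation was 0.822. SEs were derived from each fold change and F value, and intervals are at 95%. CPM levels are plain, per library total, while fold changes use TMM scaling, with factors of 0.774 to 1.14. DESeq2 1.42.0, the exact test of edgeR, limma voom 3.58.1, other scalings, no filter, a replicate block and each library left out were alternatives. On counts simulated with the common spread of these libraries, the same for every gene, DESeq2 called many genes that had not been changed. Its calls here need that caution. In those counts edgeR and limma voom called no unchanged gene but missed most changed ones. Spread in the data differs between genes, so the simulation does not measure how often a given call here is wrong. No 2 libraries matched within sampling noise (chi-square per degree of freedom of 164 or more). The 6 genes and the lists were chosen with earlier results of these data known. Genes named from the purine pathway and coupling lists are, for each list, the 3 lowest p-values and the highest mean CPM, with Drd1, Drd2 and Penk as checks of the labels, and the 3 most alike in pattern for each of the 6 genes, of which 1 is not reported here. Other genes named were chosen after their values were seen.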

Additional observations from a re-analysis of the deposited data

How the results depend on the processing

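Adora2a, Adora1, Entpd1 and Slc29a1 kept their sign under all 12 alternatives, and the alternatives that called a member called Entpd1 alone. DESeq2 called 226 genes and 1 member, with Entpd1 at -3.23, and the exact test of edgeR called 45 genes and 1 member, with Entpd1 at -3.22. The other 10 alternatives called 0 genes, among them limma voom with 643 genes at an unadjusted p below 0.05. Of the other genes named here, DESeq2 also called Cnr1, Drd2, Penk, Gfap, Stk32a, Ccdc88c and Myo1d, and the exact test Penk, Gfap and Stk32a. The astrocyte marker Gfap had the same adjusted p as Entpd1, 5.72e-06 in DESeq2 and 0.00325 in the exact test, with a log2 fold change of -4.56 in edgeR's quasi-likelihood fit. With each library left out in turn, Adora2a ran from -2.02 to -1.36, Adora1 from -1.11 to -0.40, Entpd1 from -3.38 to -3.04 and Slc29a1 from 0.10 to 1.94. Signs turned in that range for Nt5e (-1.09 to 0.58), Adk (-0.35 to 0.22), Adora2b (-0.0081 to 1.21), Alpl (-1.24 to 4.38), Entpd4 (-0.28 to 0.45), Slc29a3 (-0.29 to 2.49), Slc29a4 (-2.34 to 3.25) and Gja1 (-0.57 to 0.56). With limma voom Entpd4 was 0.11 and Gja1 -0.0052, and the cause was not tested. Alternatives for the genes named from the lists were chosen after seeing the data. Slc29a4 did not pass the filter on low counts without striatopallidal replicate 1 and has no value there. With 1 striatomesencephalic library left, that library is assumed to vary like the striatopallidal ones.

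Replicate numbers 1 and 2 occur in both groups, but nothing in the labels pairs them. Deviations from the group means correlated at -0.0261 and -0.0370 for same-numbered libraries. Deviations of 2 striatomesencephalic libraries from their mean are exact opposites, so these correlations cannot decide whether libraries are paired. With the replicate block 0 genes were called and 465 had an unadjusted p below 0.05, Adora2a was -1.79, Entpd1 -3.20 and Slc29a1 1.77. Of the 3 genes most like each member, a mean of at least 50 CPM in place of 20 kept 1 for Adora2a, 1 for Adora1 and 1 for Slc29a1. Among the 6 genes, Adora1 and Slc29a1 had the fewest counts, and whether depth limits them was not tested.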
